A study of Mus musculus with 4 samples.

Results

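Dividing KN1 cells are the 750 of 3975 cells in the KN1 neural stem cell (NSC) table that had at least 1 read of both *Mki67* and *Top2a*. They were chosen by these measured values, so the reads of *Mki67* and *Top2a* are given below as a description and support nothing. Of the other KN1 cells, 2054 had no read of either gene, 471 had reads of *Mki67* alone, and 700 had reads of *Top2a* alone. The 4 tables of the series held 15255 cells in all.

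KN1 is a single NSC line, derived from mouse epiblast stem cells (EpiSCs) of the 129/Sv strain and grown with EGF and FGF2, each at 10 ng/ml, without the Wnt antagonist XAV939 or the Wnt agonist CHIR99021. XN4 and XN1 had also received 10 µM XAV939 (from different suppliers), and CN4 2 µM CHIR99021, with the same EGF and FGF2. Each line was measured with 1 BD Rhapsody library of growing cells, in which barcoded beads capture the mRNA of single cells. With 1 library per line, no test between lines or between cell classes was made, and the intervals given are exact 95% intervals that cover counting error only.

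A cycling cell copies its DNA in S phase and separates the copies in mitosis (M), with the gap phases G1 and G2 between. The D cyclins act in G1, the replication and nucleotide genes are made most strongly toward S phase, and the genes of the spindle, the kinetochore, and chromosome condensation are made most strongly in G2 and M. Ki-67, the product of *Mki67*, coats mitotic chromosomes and is absent from resting cells. Topoisomerase II alpha, the product of *Top2a*, untangles DNA and is most abundant from late S phase to M. Neural stem cells of the embryo and of culture are known for rapid division, and their nuclei move with the cell cycle in the neural tube.

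The KN1 table held 27563145 reads, with a median of 5862 reads and 833 genes per cell. KN1 stood apart from the other lines in how its reads were spread over genes. A gene captured in a KN1 cell had a median of 5 reads, against 1 or 2 in the other lines, and after thinning to 3200 reads a KN1 cell had a median of 766 genes, against 1647.5 to 1847. The sources used here do not settle whether a read stands for a molecule. Reads are therefore not taken as molecules, and like reads may not mean like numbers of molecules between lines. The KN1 table shared 19 to 21 cell indices with each of the other tables.

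*Mki67* lies at chr7:135689784-135716361 and *Top2a* at chr11:98992943-99024189 in GRCm38, both on the minus strand. Among the dividing cells, *Mki67* had a median of 10.5 reads per cell, with 2 reads at the 10th and 35 at the 90th percentile. *Top2a* had a median of 11 reads, with 2 and 33 at the same percentiles. Just inside the threshold, 59 dividing cells had a single *Mki67* read, 41 had a single *Top2a* read, and 1 had a single read of each. Just outside it were the cells with reads of 1 of the genes alone.

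Membership followed depth. The dividing cells had a median of 9102 reads and 1211 genes, and the cells with neither gene 4824.5 reads and 703 genes. In the lowest decile of reads among KN1 cells, 3.27% were dividing cells (1.75% to 5.52%, 398 cells), and in the highest decile 52.1% (47.1% to 57.1%, 397 cells). In the highest decile, 14.9% of cells still had neither gene.

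**Figure D1:**
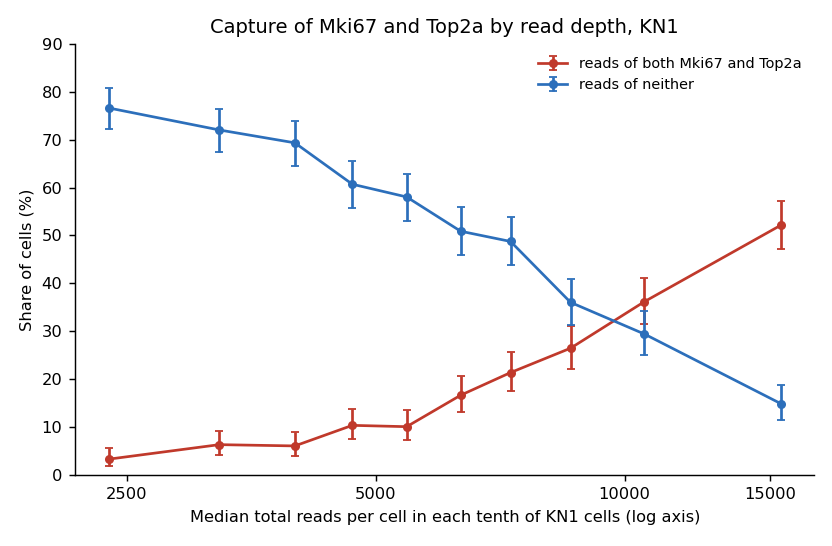
Share of KN1 cells (%, vertical axis) with reads of both *Mki67* and *Top2a* (red) and with reads of neither (blue), against the median total reads of each decile of the cells (log axis); bars are exact 95% intervals. The share with both genes went from 3.27% to 52.1% with depth.

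To compare at like depth, dividing cells were paired 1 to 1 with cells that had neither gene and total reads within 5%. This gave 592 pairs, with medians of 7919.5 reads in the dividing and 7906.5 in the paired cells. The 158 dividing cells without a partner were deep, with a median of 15835 reads. A dividing cell had a median of 1047.5 genes (quartiles 830.75 and 1341.25) and a paired cell 1017 (quartiles 818 and 1245), a ratio of 1.03. Levels are summed reads per 10000 summed reads of a class of cells, and a fold is the ratio of the levels. A gene was counted as higher or lower where the fold was at least 1.5 in either direction and reads were found in at least 10% of the dividing or of the paired cells. Of 3757 such genes, 384 (10.2%) were higher and 256 (6.81%) were lower in dividing cells, and the median fold over all of them was 0.998. Another 3117 genes (83.0%) lay between these bounds.

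Genes of mitosis stood at the top of the comparison. Of 76 genes in 6 lists of mitosis genes, all 76 had a higher level in the dividing than in the paired cells, and 73 of them by at least 1.5 times with no filter on rare genes. With no filter, 20.5% of all genes with reads were higher by that much and 21.7% lower. After the filter on rare genes, 61 of 63 mitosis genes were higher, with a median fold of 4.10, against the 10.2% of all genes. Many of these genes passed the filter because dividing cells had them, so the count was repeated over genes with reads in at least 10% of all KN1 cells, a choice made after seeing the data. There 35 of 37 mitosis genes were higher, with a median fold of 3.88, against 192 of all 2838 genes (6.77%), while 162 of the 2838 (5.71%) were lower. The exceptions in both counts were *Zwint* (fold 1.15), a kinetochore gene, and *H2afz* (fold 1.23), which encodes a histone variant found throughout chromatin. The summed level of the 76 genes was 169 reads per 10000 in dividing and 46.0 in paired cells, a fold of 3.67.

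The kinetochore, which ties chromosomes to the spindle, and its checkpoint had 15 of 16 tested genes higher. Of the tested genes, only *Bub3*, *Cenpa*, *Cenpe*, *Cenpf*, and *Zwint* also reached 10% of paired cells. The others passed the filter through the dividing cells alone. With no filter on rare genes 16 of 17 were higher, beside 20.5% of all genes. *Cenpe*, a kinesin that moves chromosomes to the middle of the spindle, was captured in 60.3% of dividing cells (56.2% to 64.3%) and 12.3% of paired cells (9.79% to 15.3%). Its level was 12.3 reads per 10000 (12.0 to 12.6, from 6141 reads) in dividing cells and 1.46 (1.35 to 1.57, from 712 reads) in paired cells, a fold of 8.44. *Cenpf*, a large protein of the outer kinetochore, was at 9.16 and 1.61 reads per 10000 (fold 5.68), and *Knl1*, the scaffold on which checkpoint proteins gather, at 5.08 and 0.731 (fold 6.95). *Sgo1*, which guards cohesin at centromeres, had a fold of 9.31 with capture in 11.0% of dividing and 2.20% of paired cells, and *Spc25*, part of the microtubule-binding Ndc80 complex, a fold of 7.37 with 14.2% and 2.70%.

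All 16 tested genes of the spindle and its motors were higher, from a fold of 1.91 to 15.1. With no filter 17 of 17 were higher, beside 20.5% of all genes. The largest fold of any gene that passed the filter was that of *Nusap1*, which bundles spindle microtubules. It was captured in 27.7% of dividing (24.1% to 31.5%) and 3.04% of paired cells (1.81% to 4.76%), at 2.23 and 0.148 reads per 10000. Its paired level rests on 72 reads, and its fold of 15.1 became 8.94 when cells were paired on genes detected. *Nusap1* overlaps *Oip5* on the other strand, and whether KN1 reads were counted by strand is not given in the sources used here. *Hmmr*, a spindle protein also known as a hyaluronan receptor, had a fold of 8.68, *Kif11*, the motor that pushes spindle poles apart, 7.27, and *Tpx2*, the activator of the Aurora A kinase, 6.99. The motor gene *Kif20b* reached 6.78 reads per 10000 in dividing and 1.07 in paired cells.

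Condensin and mitotic chromatin genes were higher in 8 of 9 tested cases, and with no filter in 9 of 10, beside 20.5% of all genes. Of the tested genes, *Ncapg* and *Ncaph* passed the filter through the dividing cells alone. *Smc4*, a core subunit of both condensins, was captured in 69.9% of dividing and 25.8% of paired cells, at 11.4 and 2.93 reads per 10000 (fold 3.90), and its partner *Smc2* stood at 7.47 and 1.96 (fold 3.80). *Ncapg*, of condensin I, had a fold of 7.16, and overlaps *Lcorl* on the other strand, with the same limit as for *Nusap1*. *Hmgb2*, a chromatin protein abundant in dividing cells, was at 4.23 and 1.29 reads per 10000 (fold 3.27).

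The passenger complex and cytokinesis genes, which act as the cell splits, were higher in 9 of 9 tested cases, and all 9 passed the filter through the dividing cells alone. With no filter 11 of 11 were higher, beside 20.5% of all genes. *Kif23*, a motor of the midzone, had a fold of 5.84, *Incenp*, the scaffold of the passenger complex, 4.88, and *Birc5*, which encodes survivin, 2.12. Among cyclins and kinases 8 of 8 tested genes were higher, and all 8 passed the filter through the dividing cells alone. With no filter 14 of 15 were higher, beside 20.5% of all genes. The mitotic kinase *Cdk1* was at 1.47 and 0.305 reads per 10000 (fold 4.80) and its cyclin *Ccnb1* at 1.19 and 0.443 (fold 2.69), with capture in 15.9% of dividing and 6.08% of paired cells. Genes of the anaphase-promoting complex and of mitotic exit had the lowest median fold of the mitosis lists, 2.18, with 5 of 5 tested genes higher. Of the tested genes, only *Ube2c* also reached 10% of paired cells (10.1%), and the others passed the filter through the dividing cells alone. With no filter 6 of 6 were higher, beside 20.5% of all genes. *Ube2c*, the ubiquitin-conjugating enzyme of that complex, had a fold of 3.52, *Fzr1*, its activator in late mitosis and G1, 2.18, and *Pttg1*, which encodes securin, 1.52.

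**Figure D2:**
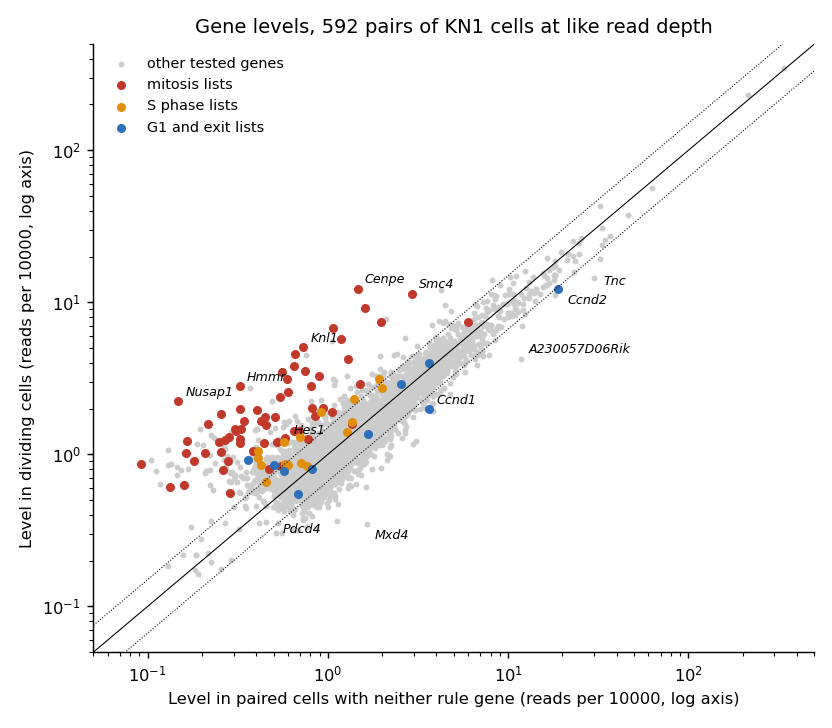
Level of each tested gene in dividing KN1 cells (vertical, reads per 10000, log axis) against its level in paired cells with neither *Mki67* nor *Top2a* (horizontal, same unit, log axis) over 592 pairs. The solid line marks equal levels and the dotted lines a fold of 1.5; mitosis genes (red) lie above the lines except *Zwint* and *H2afz*, and *Ccnd1*, *Ccnd2*, *Mxd4*, and *Tnc* lie below.

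Late cell cycle promoters are known for CCAAT boxes, bound by NF-Y, and for the cell cycle homology element TTTGAA or TTTAAA, bound by the MuvB core of the DREAM complex. RefSeq promoters of GRCm38.p6, from 250 bases before to 50 after the start, were found for 65 of the 76 mitosis genes, with 70 promoters. Of these 70, 68.6% held CCAAT on either strand, against 37.4% of all 32851 promoters. TTTGAA on either strand was in 64.3% against 17.9%, and the palindrome TTTAAA in 17.1% against 13.2%. CCAAT together with TTTGAA or TTTAAA was in 57.1% against 10.7%. A match of CCAAT can share its last T with one of TTTGAA or TTTAAA, which was not so in the promoters printed here, and a match is a run of letters, not a shown binding site. Fewer than 80% of the genes higher or lower in dividing cells had a promoter in the table (77.6% and 71.1%), so no motif share is given for them. Among mitosis genes that passed the filter, the promoters of the 4 with the largest folds that held CCAAT and TTTGAA or TTTAAA are shown from 5′ to 3′ on the gene's strand to make this arrangement visible, with every match on either strand in capitals (ATTGG is CCAAT and TTCAAA is TTTGAA read from the other strand).
Hmmr: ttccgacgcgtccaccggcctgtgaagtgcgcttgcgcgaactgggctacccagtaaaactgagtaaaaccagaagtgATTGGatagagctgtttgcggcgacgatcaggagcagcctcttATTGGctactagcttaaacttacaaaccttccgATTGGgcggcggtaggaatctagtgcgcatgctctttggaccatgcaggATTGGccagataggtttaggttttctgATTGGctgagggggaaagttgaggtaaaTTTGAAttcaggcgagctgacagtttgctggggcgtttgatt
Cenpe: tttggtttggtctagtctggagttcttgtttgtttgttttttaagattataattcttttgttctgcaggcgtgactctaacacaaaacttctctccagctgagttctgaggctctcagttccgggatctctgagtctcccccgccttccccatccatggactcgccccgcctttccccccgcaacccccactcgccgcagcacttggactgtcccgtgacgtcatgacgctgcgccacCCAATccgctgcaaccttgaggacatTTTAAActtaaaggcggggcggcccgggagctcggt
Spc25: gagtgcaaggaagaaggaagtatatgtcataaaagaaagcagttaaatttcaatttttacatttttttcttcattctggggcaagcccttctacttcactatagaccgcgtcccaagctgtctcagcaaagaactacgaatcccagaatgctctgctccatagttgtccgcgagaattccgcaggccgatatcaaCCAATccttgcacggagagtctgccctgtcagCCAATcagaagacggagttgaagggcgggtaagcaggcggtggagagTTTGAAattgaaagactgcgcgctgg
Kif11: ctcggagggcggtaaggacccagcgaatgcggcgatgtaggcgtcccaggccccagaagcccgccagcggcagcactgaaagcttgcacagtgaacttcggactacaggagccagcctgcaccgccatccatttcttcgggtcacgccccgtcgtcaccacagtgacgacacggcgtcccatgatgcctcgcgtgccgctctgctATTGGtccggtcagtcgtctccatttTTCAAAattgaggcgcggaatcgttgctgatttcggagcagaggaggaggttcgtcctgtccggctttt
The *Hmmr* promoter lies at chr11:40733388-40733687 on the minus strand, and holds 5 matches of ATTGG, the last beginning 20 bases before the start, and a TTTGAA beginning at base 9 after it. That of *Cenpe* lies at chr3:135212313-135212612 on the plus strand, with CCAAT 12 bases before the start and TTTAAA from base 15 of the transcript. In the *Spc25* promoter, at chr2:69206164-69206463 on the minus strand, CCAAT boxes begin 55 and 23 bases before the start and TTTGAA at base 25. In the *Kif11* promoter, at chr19:37376132-37376431 on the plus strand, ATTGG begins 45 and TTCAAA 19 bases before the start. In all 4 the match of TTTGAA or TTTAAA stood downstream of the CCAAT box nearest to it. The promoters of *Nusap1* and *Sgo1*, which had the largest folds of the mitosis genes that passed the filter, did not hold both motifs.

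S phase genes had smaller folds. Of 47 genes in 3 lists, 41 had a higher level in dividing cells. With no filter 18 were higher by at least 1.5 times and 2 lower, beside 20.5% and 21.7% of all genes. The 2 lower were *Cdt1* (fold 0.516) and *Cdc45* (0.641), both below the filter. After the filter 8 of 16 were higher and none lower, with a median fold of 1.57. Over genes in at least 10% of all KN1 cells 5 of 10 were higher, beside the 6.77% of all such genes. The summed level was 35.6 reads per 10000 in dividing and 24.8 in paired cells, a fold of 1.43. Among the genes that supply nucleotides, 3 of 4 that passed the filter were higher, and all 4 passed it through the dividing cells alone. With no filter 3 of 7 were higher, beside 20.5% of all genes. *Rrm2*, a subunit of ribonucleotide reductase, had a fold of 2.57, *Tk1*, thymidine kinase, 2.32, *Rrm1*, the other reductase subunit, 2.14, and *Tyms*, thymidylate synthase, 1.47. *Lig1*, which joins Okazaki fragments, had 2.08 and *Pola1*, of the primase complex, 1.64. The 6 *Mcm2* to *Mcm7* genes of the replicative helicase, named after their values were seen, had folds from 1.09 to 1.48, and of these *Mcm7* alone passed the filter, at 0.836 and 0.768 reads per 10000 (fold 1.09). *Nasp*, a histone chaperone, was at 2.73 and 2.00 (fold 1.36).

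The replication-dependent histones were rarely captured in KN1, since none of 14 genes was found in 10% of either class. Low capture is not a measure of how much of these RNAs the cells held, which was not tested. *Hist1h1b*, the gene of a linker histone, was captured in 6.08% of dividing and 1.86% of paired cells, and *Hist1h1e*, another linker histone gene, in 5.57% and 2.36%. *Hist1h1c* went the other way, with 1.86% and 2.36%, and *Hist1h1d* was in 0.845% of each class. Of the 14 genes, 9 had a higher and 5 a lower level in dividing cells, beside 5135 and 5772 of all 10913 genes below the filter. Summed over the 14 genes, the level was 1.60 and 1.00 reads per 10000.

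S phase and mitosis genes were also counted within single cells. At least 3 genes of the mitosis lists were found in 589 of 592 dividing cells and 408 of 592 paired cells. At least 3 of the S phase lists were found in 426 dividing cells, 425 of which were among the 589, and in 276 paired cells, 239 of which were among the 408. Of the dividing cells, 246 had reads of both the nucleotide supply and the cyclin and kinase lists, 53 of the first alone, 219 of the second alone, and 74 of neither. Of the paired cells, the same counts were 108, 81, 124, and 279. The nucleotide supply list was thus captured in 50.5% of dividing (46.4% to 54.6%) and 31.9% of paired cells (28.2% to 35.8%), and the cyclin and kinase list in 78.5% (75% to 81.8%) and 39.2% (35.2% to 43.3%).

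*Ccnd1* and *Ccnd2*, D cyclins that drive G1, were lower in dividing cells. Of the 6 genes in their list 4 passed the filter, of which 2 were lower, beside 6.81% of all genes. With no filter 2 were lower and 1, *Cdk6* (fold 2.19, 170 and 76 reads), was higher, beside 21.7% and 20.5% of all genes. *Ccnd2* was captured in 75.5% of dividing and 83.3% of paired cells, at 12.2 and 18.9 reads per 10000 (fold 0.644). *Ccnd1* was captured in 23.8% and 34.8%, at 1.99 and 3.64 (fold 0.545). A partner kinase, *Cdk4*, was at 3.96 and 3.66 (fold 1.08), and the other D cyclin, *Ccnd3*, was below the filter, at 0.746 in dividing and 0.543 in paired cells. Among 18 inhibitors and exit genes 6 passed the filter, of which 2 were higher, beside the 10.2% of all genes, and both passed it through the dividing cells alone. With no filter 4 of the 18 were higher and 3 lower, near the 20.5% and 21.7% of all genes. *Rbl1*, the gene of the pocket protein p107, had a fold of 2.55, and *Cdkn1b*, of the inhibitor p27, 1.69. *Cdkn1a*, of the inhibitor p21, was at 2.89 and 2.54 reads per 10000 (fold 1.14).

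The 15 genes with the smallest folds were chosen by these folds, so their values are a description, and 7 of them passed the filter through the paired cells alone. *Mxd4*, whose product competes with MYC for its partner MAX, had the smallest fold of the genes that passed the filter, 0.210. It was captured in 4.90% of dividing (3.30% to 6.96%) and 18.8% of paired cells (15.7% to 22.1%), at 0.347 and 1.65 reads per 10000. *Pdcd4*, an inhibitor of translation initiation, followed with a fold of 0.326 and capture in 9.80% (7.52% to 12.5%) and 17.9% (14.9% to 21.2%). The long noncoding RNA *A230057D06Rik*, on chromosome 7 across the *Mir344* genes, was captured in 29.9% (26.2% to 33.8%) and 51.2% (47.1% to 55.3%), at 4.25 and 11.8 reads per 10000. *Rsrp1* was captured in 11.5% and 20.9% of cells (fold 0.376).

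Of the other genes among these 15, *Cacna1a*, a calcium channel subunit, had a fold of 0.426, *Unc79*, a part of the sodium leak channel complex, 0.440, *Pak3*, a kinase of the cytoskeleton, 0.416, and *Hs3st2*, which sulfates heparan, 0.398. *Inpp4b*, a phosphoinositide phosphatase, had 0.395, *Prr5l*, which binds mTOR complex 2, 0.382, and *Akap12*, a scaffold for protein kinase A, 0.417. *Ufl1*, a ligase of the UFM1 modifier, had 0.448, *Sec24d*, of the COPII vesicle coat, 0.449, and the noncoding RNAs *AI480526* and *Gm2164* 0.436 and 0.452. *Tnc*, named here after its values were seen, encodes the matrix protein tenascin C and had the largest difference in level of the lower genes. It was at 14.4 reads per 10000 in dividing and 29.9 in paired cells, a fold of 0.481.

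Of the 15 genes with the largest folds, likewise chosen by them, 14 passed the filter through the dividing cells alone. Those outside the lists were *Depdc1a* (fold 8.83), *Dlgap5*, which stabilizes kinetochore fibers (8.25), *Aspm*, a spindle pole protein whose loss causes small brains (7.46), *Arhgef39* (7.05), *Troap*, a spindle protein (6.55), and *Cdca2*, which brings a phosphatase to chromatin (7.54). All were captured in 11.7% to 27.9% of dividing cells and 1.69% to 4.56% of paired cells. In all, 309 of the 384 higher genes were in none of the lists.

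**Figure D3:**
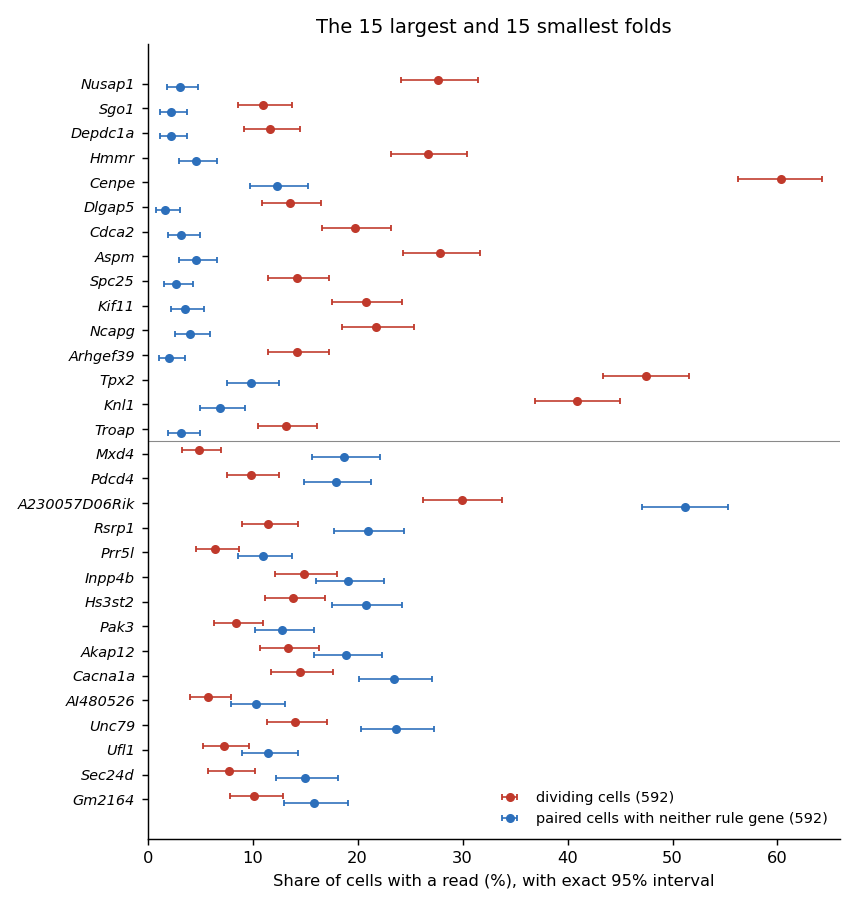
Share of cells with a read (%, horizontal axis) for the 15 genes with the largest (above the line) and the 15 with the smallest folds (below it), in 592 dividing (red) and 592 paired (blue) KN1 cells, with exact 95% intervals. The genes were chosen by their folds in the same cells; the upper genes were found in 11.0% to 60.3% of dividing and 1.69% to 12.3% of paired cells.

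Genes of neural progenitor identity were found in both classes. Of 12 tested genes, 11 lay between the bounds, beside 83.0% of all genes tested, and the median fold was 0.940. Without the filter, 4 of 19 were higher and 0 were lower, beside 20.5% and 21.7% of all genes. *Slc1a3*, a glutamate transporter of radial glia, was captured in 84.6% of dividing and 89.0% of paired cells (fold 0.721), *Ptprz1*, a receptor phosphatase of radial glia, in 79.1% and 85.3% (fold 0.799), and *Nes*, the gene of nestin, in 57.8% and 53.9% (fold 1.14). *Hes1*, a Notch target and the exception, had a fold of 2.12, which became 1.3 when cells were paired on genes detected and 1.24 when paired on reads and genes detected.

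Markers of other cell types were measured in both classes, and their part in the results was not tested. Of 12 neuron genes 3 passed the filter, and the summed level of those listed was 16.7 reads per 10000 in dividing and 19.8 in paired cells. Most of it was *Map2*, a microtubule protein of neurons, at 14.4 and 16.5 (fold 0.875), and *Snap25*, of the synaptic vesicle machinery, had a fold of 0.489 with capture in 5.74% and 11.8%. *Tubb3* was found in 0.507% of dividing and 1.18% of paired cells, and *Stmn2* in 0.338% and 1.01%. *Syt1*, a calcium sensor of synaptic vesicles, went the other way, in 4.39% and 3.38% (fold 2.07). Without the filter, 6 of the 10 neuron genes listed were lower by the fold bound and 1 was higher, beside 21.7% and 20.5% of all genes. The oligodendrocyte lineage list, at a summed level of 5.09 and 6.32, had *Olig1* at a fold of 0.666 and *Olig2* at 0.859, while *Mbp*, of myelin, was found in 0.845% of dividing and 0.507% of paired cells, and *Pdgfra*, *Cspg4*, *Sox10*, and *Mog* were not listed in the KN1 table. Of 10 astrocyte genes 3 were tested, none higher or lower, with a summed level of 4.97 and 6.10 over those listed, which do not include *Gfap*, *Aqp4*, or *S100b*. Of the 7 listed, 6 had a lower level in dividing cells, among them all 4 below the filter, beside 5772 of all 10913 genes below it. Without the filter 2 were lower by the fold bound and 0 higher, beside 21.7% and 20.5% of all genes. Of 10 connective tissue genes 6 were listed, with a summed level of 0.385 in dividing and 0.277 in paired cells. The epiblast gene *Pou5f1* was in 0.338% of dividing (6 reads in 2 cells) and in none of the 592 paired cells, which by 3 counts of 592 allows a share of cells with a read of up to 0.507%. The other listed gene of the epiblast list, *T* (*Bra*), is described by the authors as characteristic of mesoderm. *T* was in 2.36% of dividing and 2.53% of paired cells (fold 0.878).

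Of genes of position along the body axis, all 5 of the 18 *Hox* genes that passed the filter lay between the bounds, beside 83.0% of all genes tested, with a median fold of 1.02. Without the filter, 5 of the 18 were higher and 4 were lower, beside 20.5% and 21.7% of all genes. *Hoxa7* was captured in 26.0% of dividing and 27.2% of paired cells, *Hoxa5* in 22.8% and 21.3%, and *Hoxb8* in 16.2% and 17.9%. The summed level of the 18 genes was 9.63 and 9.71 reads per 10000. *Sp8*, a region factor, was captured in 15.2% and 17.2% (fold 0.760).

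Lists that bear on handling and RNA quality were compared as well. *Malat1*, a nuclear noncoding RNA, was at 347 and 340 reads per 10000 (fold 1.02). All 6 tested genes of the stress list, all 5 of glycolysis, and all 9 of the nucleolus and translation lay between the bounds, beside 83.0% of all genes tested. Without the filter, 1 of 14 stress genes was higher and 4 were lower, and 2 of 11 glycolysis genes were higher and 2 lower. Of all genes, 20.5% were higher and 21.7% lower without it. Of 8 stress genes below the filter, 7 had a lower level in dividing cells, beside 5772 of all 10913 genes below it. *Dusp1* (18 and 75 reads) and *Atf3* (3 and 15 reads) were named after their values were seen, for their small folds. The noncoding RNA *Kcnq1ot1*, also below the filter and named after its values were seen, was found in 2.53% of dividing and 5.41% of paired cells (fold 0.356). Among tubulins 3 of 6 were higher, beside the 10.2% of all genes: *Tuba1b* (fold 1.71), *Tubb4b* (1.69), which passed the filter through the dividing cells alone, and *Tubb5* (1.5). The part of free RNA in the low shares of paired cells was not tested.

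**Figure D4:**
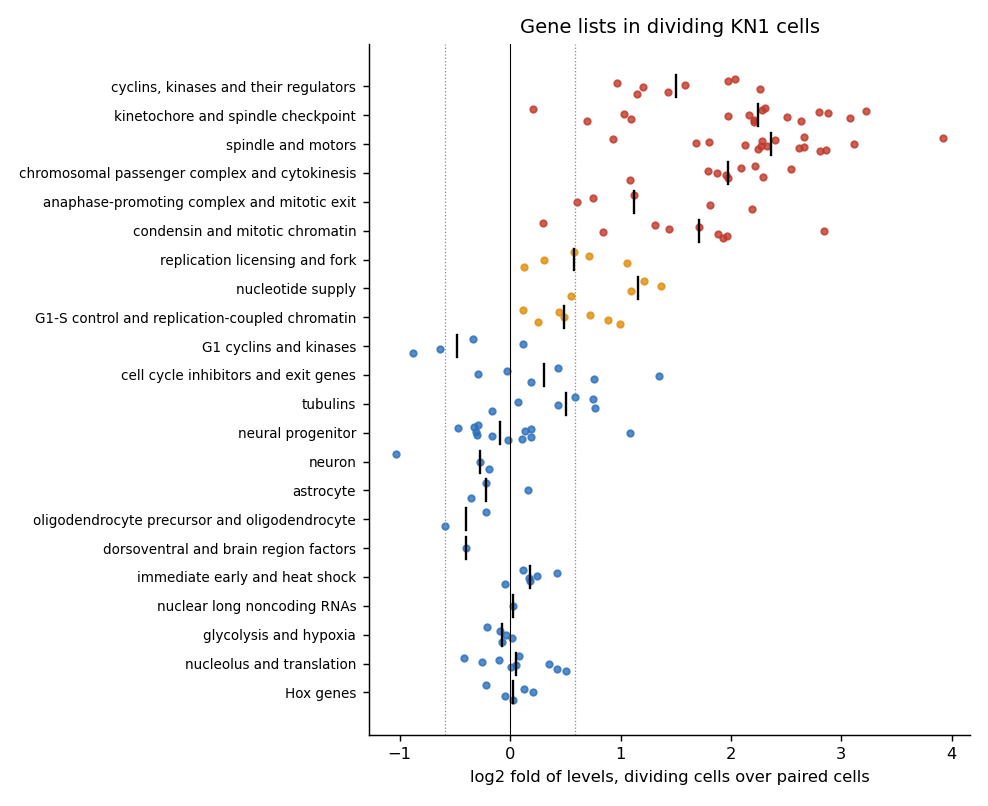
log2 fold of levels (horizontal axis) of each tested gene, dividing over paired KN1 cells, by gene list, with the median of each list as a black bar; dotted lines mark a fold of 1.5 in either direction. The medians of the 6 mitosis lists (red) correspond to folds of 2.18 to 5.14, and those of the 3 S phase lists (orange) to folds of 1.40 to 2.23.

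The comparison was also made within groups of like depth. In 4 groups of 148 pairs ordered by reads, the mitosis genes had a summed fold of 4.19, 3.73, 4.06, and 3.24 from the shallowest to the deepest, and the S phase genes 1.43, 1.40, 1.43, and 1.46. *Cenpe* had folds of 12.4, 10.3, 8.09, and 6.54 in the same order. *Ccnd2* had 0.805, 0.674, 0.504, and 0.695, *Ccnd1* 0.800, 0.574, 0.567, and 0.451, *Tnc* 0.419, 0.423, 0.493, and 0.528, and *Mxd4* 0.0494, 0.134, 0.122, and 0.347. No fold of these changed its direction with depth.

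Cells that had 1 of the genes alone lay between. The summed level of the mitosis genes was 167 reads per 10000 in the 651 dividing cells with at least 2 reads of each gene, 145 in the 99 with a single read of either, 117 in cells with *Top2a* alone, 111 in cells with *Mki67* alone, and 48.4 in all cells with neither. *Cenpe* was at 11.5, 8.0, 4.78, 6.73, and 1.56 in the same order. *Ccnd2* was at 12.4, 13.7, 15.3, 12.8, and 17.7, *Tnc* at 14.2, 18, 22.3, 18.3, and 28.1, and *Mxd4* at 0.468, 0.425, 0.722, 0.906, and 1.65. The S phase genes had another order, since cells with *Top2a* alone had the highest level, 43.2, against 34.4 in dividing cells, 30.5 in cells with *Mki67* alone, and 24.1 in cells with neither. These classes differ in depth, with medians of 6888.5 reads for *Top2a* alone and 5799 for *Mki67* alone.

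A read of neither gene did not mean an absence of mitosis genes. At least 3 genes of the mitosis lists were found in 68.9% of the paired cells (65.0% to 72.6%), and in 99.5% of dividing cells (98.5% to 99.9%). The lists hold genes captured widely in paired cells, such as *H2afz* (48.5%) and *Smc4* (25.8%). Under the same rule the share in paired cells was 90.8% in XN4, 87.6% in XN1, and 93.4% in CN4. Paired cells of those lines had medians of 3483, 2541, and 2563 genes detected, against 1017 in KN1. The shares were not compared at like numbers of genes, so they do not show whether the KN1 share was particular to that line. The summed level of the mitosis genes in paired cells, given below, was higher in KN1 than in each other line. In KN1 the median dividing cell had 17 of the 76 genes (10th and 90th percentiles 8 and 27), and the median paired cell 4 (1 and 14), so the ranges overlapped. Of the paired cells 40 had none, and of the dividing cells 0.

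The same rule was applied to the other lines, with values given side by side. After thinning every cell to 3200 reads and applying the rule again, 17.3% of 3396 KN1 cells had both genes (16.1% to 18.6%, 579 cells left out), against 14.6% of 3384 cells in XN4 (13.5% to 15.9%, 543 left out), 19.2% of 3129 in XN1 (17.9% to 20.7%, 776 left out), and 39.9% of 3158 in CN4 (38.2% to 41.7%, 290 left out). Without thinning the shares were 18.9% in KN1, 17.6% in XN4, 20.8% in XN1, and 47.2% in CN4. Over 683 pairs in XN4, 813 in XN1, and 882 in CN4, the summed fold of the mitosis genes was 14.1, 11.7, and 8.15, against 3.67 in KN1. The level in cells with both genes was 186, 203, and 191 reads per 10000, against 169 in KN1, and the level in cells with neither was 13.2, 17.4, and 23.4, against 46.0. The S phase genes had a summed fold of 6.11, 7.75, and 2.96, against 1.43 in KN1. Cells with neither gene in KN1 had S phase genes at 24.8 reads per 10000, and those of XN4, XN1, and CN4 at 7.78, 6.51, and 17.5. With 1 library per line, the line, the library, and the way KN1 reads were spread over genes cannot be told apart.

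The genes higher in dividing KN1 cells were also looked up in the other lines, which share no library with KN1. Of the 384, 359 were tested in XN4 and 231 of these (64.3%) were higher there by at least 1.5 times, against 13.8% of all genes tested in both lines. In XN1 it was 236 of 344 (68.6% against 14.5%) and in CN4 214 of 356 (60.1% against 9.22%). Seen from the other side, these made up 20.2% of the 1145 genes higher in XN4, 22.0% of the 1073 in XN1, and 31.4% of the 682 in CN4. Over each line's own table, 12.2% of genes were higher in XN4, 13.6% in XN1, and 8.64% in CN4. A set of 192 genes was higher in all 4 lines, of which 61 were in the mitosis lists. The mitosis lists made up 63 of the 3757 genes tested in KN1, a different set from the genes tested in all 4 lines. The 2 counts are therefore not compared. No share of the genes tested in all 4 lines is given beside the 192, which are a description.

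The genes lower in dividing KN1 cells were looked up in the same way. Of 256, 208 were tested in XN4 and 41 (19.7%) were lower there, against 5.22% of genes tested in both. In XN1 it was 44 of 215 (20.5% against 4.57%) and in CN4 42 of 227 (18.5% against 3.04%). The lower genes were 11.4% of those tested in XN4, 9.24% in XN1, and 6.22% in CN4. The 10 genes lower in all 4 lines were *Abat*, *Ccnd2*, *Cpe*, *Ctsb*, *Fbxl20*, *Mt2*, *Mxd4*, *Pdcd4*, *Tgfb2*, and *Ube2h*. They are a description, with no share of the genes tested in all 4 lines beside them. *Mxd4* had folds of 0.427 in XN4, 0.292 in XN1, and 0.290 in CN4, against 0.210 in KN1. *Ccnd2* had 0.202, 0.292, and 0.490, against 0.644, and *Pdcd4* 0.566, 0.382, and 0.484, against 0.326. *Ufl1* and *Sec24d* passed the bound in KN1 and in none of the other lines, with folds there of 0.768 to 0.985 and 0.786 to 1.17. Both were chosen by their small folds in KN1 and passed its filter through the paired cells alone. Their difference between lines is therefore a description and shows no trait of KN1.

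**Figure D5:**
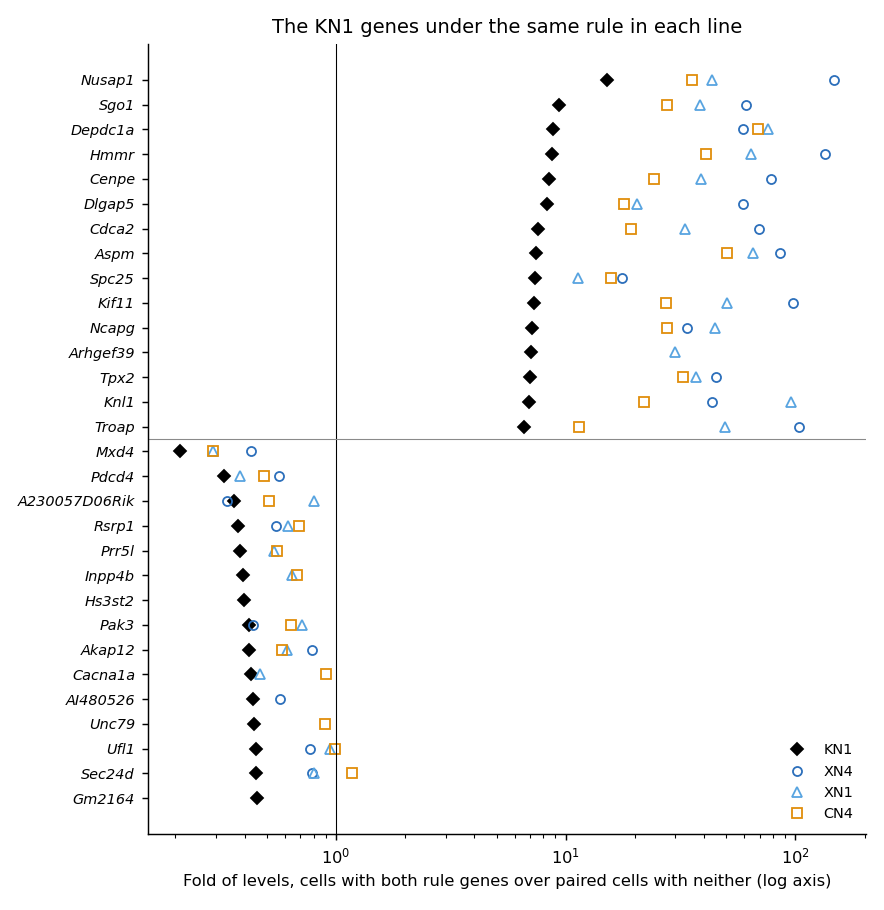
Fold of levels (horizontal, log axis) of the KN1 genes with the 15 largest and 15 smallest folds, cells with both *Mki67* and *Top2a* over paired cells with neither, in KN1 (black diamonds), XN4 (blue circles), XN1 (light blue triangles), and CN4 (orange squares). Points are left out where a gene was below the filter in a line or had 3 or fewer reads in its paired cells; the upper genes had larger folds in the other 3 lines than in KN1, and the lower genes mostly had folds nearer to 1.

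The genes that differed also differed in size. From the GENCODE M21 annotation of GRCm38, the 384 higher genes had a median genomic length of 35.4 kb (quartiles 16.6 and 67.6), the 256 lower genes 68.0 kb (25.2 and 170), and all tested genes 49.5 kb (18.6 and 117). Genes that do not encode proteins were 1.82% of the higher, 4.30% of the lower, and 1.33% of all tested genes. The part of length in the folds was not tested.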

How the data were processed

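The values deposited by the authors for each line are on a natural log scale: in every cell the reads of a gene were divided by the cell's total, multiplied by 10000, and 1 was added before the log, with ribosomal protein and mitochondrial genes left out. The submitters' processing notes name mm10 and Seurat 4.3.0. The aligner settings of KN1 are not given in the sources used here. Other tables of reads for XN4, XN1, and CN4 were not used here.

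Values were turned back into reads, and 100% came out whole within 0.01. Depth was 955 to 34345 reads per KN1 cell, and the precision of each share is given by its exact Clopper-Pearson interval, and of summed reads by an exact Poisson interval. Both cover counting error only, and Poisson intervals are too narrow, since a captured gene had a median of 5 reads. Samples were grouped by the line in their titles.

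Each dividing cell, deepest first, was paired with the unused cell nearest in reads, within 5%. Fold and filter are given with the results. The members, lists, and alternatives were chosen with earlier results of these data known. Besides the lists, genes with the 15 largest and 15 smallest folds were named. No cell was removed as a doublet: scrublet in scanpy 1.11.5, given a rate of 6%, marked 2 of 3975 cells, too few to use as calls. Of the 238 cells with the highest scores, 69 (29.0%) were dividing cells, against 18.9% of all cells. Python 3.11.15, numpy 2.4.6, and scipy 1.17.1 were used. Alternatives were other pairings, strata, thinning, filters, a stricter fold, a stricter rule, equal weights, and leaving out the deepest cells or those with the highest doublet scores.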

Additional observations from a re-analysis of the deposited data

How the results depend on the processing

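Of 64 values recomputed under alternatives, 44 stayed within the bounds set for them and 20 moved beyond. The bounds were 1.5 times for counts, the exact interval for shares, and the same direction for the ratio of genes detected. Those that moved were counts and shares, which have no direction. The share of dividing cells, 18.9%, became 16.4% with at least 2 reads of each gene, 17.3% after thinning to 3200 reads, and 16.8% without the deepest 5% of cells. The filter on rare genes and the bound on the fold set the counts. Against 384 higher and 256 lower genes, a filter of 5% of cells gave 812 and 696, a filter of 20% gave 128 and 74, a filter of 10% of all KN1 cells (chosen after seeing the data) gave 192 and 162, and a fold of at least 2 gave 163 and 28. The 61 higher mitosis genes became 33 with the filter of 20% and 35 with that of all KN1 cells. The 8 higher S phase genes became 14 with the filter of 5%, 3 with 20%, 5 with that of all KN1 cells, 4 with a fold of at least 2, and 15 over strata. Paired cells with at least 3 mitosis genes, 68.9%, became 72.8% when paired on reads and genes detected and 57.5% after thinning. Over all pairings, weights, and selections of cells tried, the fold of *Mxd4* ran from 0.175 to 0.267, of *Ccnd1* from 0.488 to 0.606, of *Tnc* from 0.439 to 0.549, and of *Cenpe* from 7.38 to 9.0. The cause of these moves was not tested beyond the settings themselves. Pairs are of cells within 1 library. No paired analysis was possible because between samples there are no replicates, each line being 1 library, and none could be left out.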
